A study of Mus musculus with 4 samples.

Results

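The Dlk1-Dio3 region of mouse chromosome 12 carries a large cluster of microRNAs (miRNAs), short RNAs that lower the output of the mRNAs they pair with. The mouse miRNAs of an Agilent miRNA array were taken as members if their probes were placed on chromosome 12 within a window around this cluster, whose outermost members start at 109563720 and end at 109747949. This gave 113 members among 1247 mouse miRNAs, and 49 of the 113 were bright enough to be tested, among 425 tested miRNAs in all. The rule used position and no signal.

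The region is imprinted, which means that each of its genes is read mainly from the copy of 1 parent. Many of its miRNAs are known to come from long RNAs read from the maternal copy (Meg3, the RNA antisense to Rtl1, Rian and Mirg), whereas the protein-coding genes Dlk1, Rtl1 and Dio3 are read mainly from the paternal copy. Dlk1, also known as preadipocyte factor, is a membrane protein of preadipocytes that restrains their differentiation, and Dio3 encodes an enzyme that inactivates thyroid hormone. Each hairpin can give a mature miRNA from its 5′ arm (5p) and another from its 3′ arm (3p), and a miRNA finds its targets mainly through its seed, bases 2 to 8. The arrays measure mature miRNAs and cannot tell the parental copies apart.

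RNA came from the stromal-vascular fraction (SVF) of visceral white adipose tissue (visWAT), which is what remains after the fat-filled adipocytes are removed and holds preadipocytes, fibroblasts, vascular cells and leukocytes. The mice were female, 8 weeks old, of the C57/BL6 strain (the last digit of this name differs among the labels) and no engineered allele is named. They received vehicle (PBS) or the β3-adrenoceptor agonist CL-316243 (CL), a compound that induces browning of white fat, at 1 mg/kg for 3 days. The injections were subcutaneous according to the labels and intraperitoneal according to the methods. Each group comprised 2 arrays and each array a pool of 5 mice, so that the spread between arrays is that between pools. Both vehicle arrays lay in 1 row of the slide and both CL arrays in the next, and row and treatment cannot be told apart. Vehicle 1 and CL 1 shared a column of the slide, as did vehicle 2 and CL 2.

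The members span 184.2 kb and fall into 2 groups along the chromosome, in GRCm38 positions. The miR-770 to miR-882 group (chr12:109563720-109682228) holds 37 members, and the miR-379 to miR-3072 group (chr12:109709070-109747949) holds 76 members within 38.9 kb. In the RefSeq annotation of GRCm38, 2 members lie within the span of Meg3, 28 within Rtl1, 2 within the non-coding gene 6430411K18Rik, 6 within Rian and 19 within Mirg. The other 58 lie in none of these, among them the miRNAs from miR-379 to miR-134. The annotation used here gives no exons, so whether a hairpin is exonic or intronic was not determined.

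The mature sequences below are those of members whose values the results turn on or whose seeds are related, from RefSeq, written 5′ to 3′ with the seed in capitals. Members called higher in CL included these.
miR-136-5p: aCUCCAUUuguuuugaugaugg
miR-136-3p: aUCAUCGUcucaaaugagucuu
miR-337-3p: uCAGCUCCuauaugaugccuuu
miR-376a-3p: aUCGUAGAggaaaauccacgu
miR-376b-3p: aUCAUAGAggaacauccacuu
miR-377-3p: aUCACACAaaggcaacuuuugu
miR-127-3p: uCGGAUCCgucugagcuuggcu
miR-154-5p: uAGGUUAUccguguugccuucg

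miR-376a-3p and miR-376b-3p have seeds that differ at 1 base. Further tested members that share a seed with another member, or differ from it at 1 base of the seed, included these.
miR-379-5p: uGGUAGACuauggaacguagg
miR-411-5p: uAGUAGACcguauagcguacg
miR-379-3p: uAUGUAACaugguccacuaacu
miR-411-3p: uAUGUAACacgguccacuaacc
miR-410-3p: aAUAUAACacagauggccugu
miR-300-3p: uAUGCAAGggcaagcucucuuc
miR-381-3p: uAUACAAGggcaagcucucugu
miR-299a-3p: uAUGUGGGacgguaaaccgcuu
miR-299b-3p: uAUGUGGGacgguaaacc
miR-3070a-3p: uGGUGCUAccgucagggguaga
miR-3070b-3p: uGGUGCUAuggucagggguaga

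The members called lower in CL, and miR-494-3p, whose CL arrays stood apart, were these.
miR-673-5p: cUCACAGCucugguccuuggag
miR-3072-5p: aGGGACCCcgagggagggcagg
miR-494-3p: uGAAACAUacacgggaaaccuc

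A mature sequence was matched for 109 of the 113 members, and the longest probe of each of the 109 paired with its own mature miRNA in full. Probes of sister hairpins were not always specific. The longest probe of miR-299b-3p also paired in full with miR-299a-3p, and that of miR-299b-5p with miR-299a-5p, so these signals may be shared. The longest probe of miR-376b-5p paired with miR-376c-5p with 1 mismatch.

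Many members stayed near background. The scanner software made a detection call on all 4 arrays for 36 members and on no array for 62. Vehicle 1 detected 49 members, vehicle 2 detected 42, CL 1 detected 45 and CL 2 detected 46. In the remaining 15, detection was partial. Of these, 8 were detected on both CL arrays and 1 vehicle array, 2 on both vehicle arrays and 1 CL array, and 3 on both vehicle arrays and no CL array (miR-3070a-3p, miR-1188-5p and miR-1188-3p). Members were tested only if both vehicle arrays or both CL arrays detected them, which left out miR-540-5p, detected on CL 1 alone, and miR-882, detected on vehicle 2 alone.

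CL-treated SVFs had more signal than vehicle-treated SVFs for most tested members. With a threshold of 0.05 on limma's unadjusted p, 26 of the 49 tested members (53.1%) were called higher and 2 (4.08%) were called lower. Over all 425 tested miRNAs, 18.6% were called higher and 16.2% lower. With scaling to the 75th percentile in place of quantiles, 7 members (14.3%) were called higher and 3 (6.12%) lower, against 9.88% and 21.4% of all tested miRNAs. After Benjamini-Hochberg adjustment over the 425, limma called 0 of them at 0.05, the 49 members included, against 148 at an unadjusted p of 0.05. The calls below are therefore all unadjusted. In RNA from mixed cells, more cells of a type and more of a miRNA per cell cannot be told apart.

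Of the 26 members called higher, 5 were not detected on all 4 arrays and passed the filter only through the CL group. They were miR-136-3p, miR-299b-3p, miR-543-3p, miR-409-5p and miR-369-5p, none of them detected on vehicle 2. Of the 2 members called lower, miR-673-5p passed the filter only through the vehicle group. When only miRNAs detected on all 4 arrays were tested, 20 of 36 members were called higher (55.6%, against 18.2% of 362) and 1 lower (2.78%, against 15.7%). The median log2 fold change was 0.47 over the 49 members and −0.01 over all tested miRNAs. It was 0.53 and 0.02, respectively, for those detected on all 4 arrays.

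**Figure D1:**
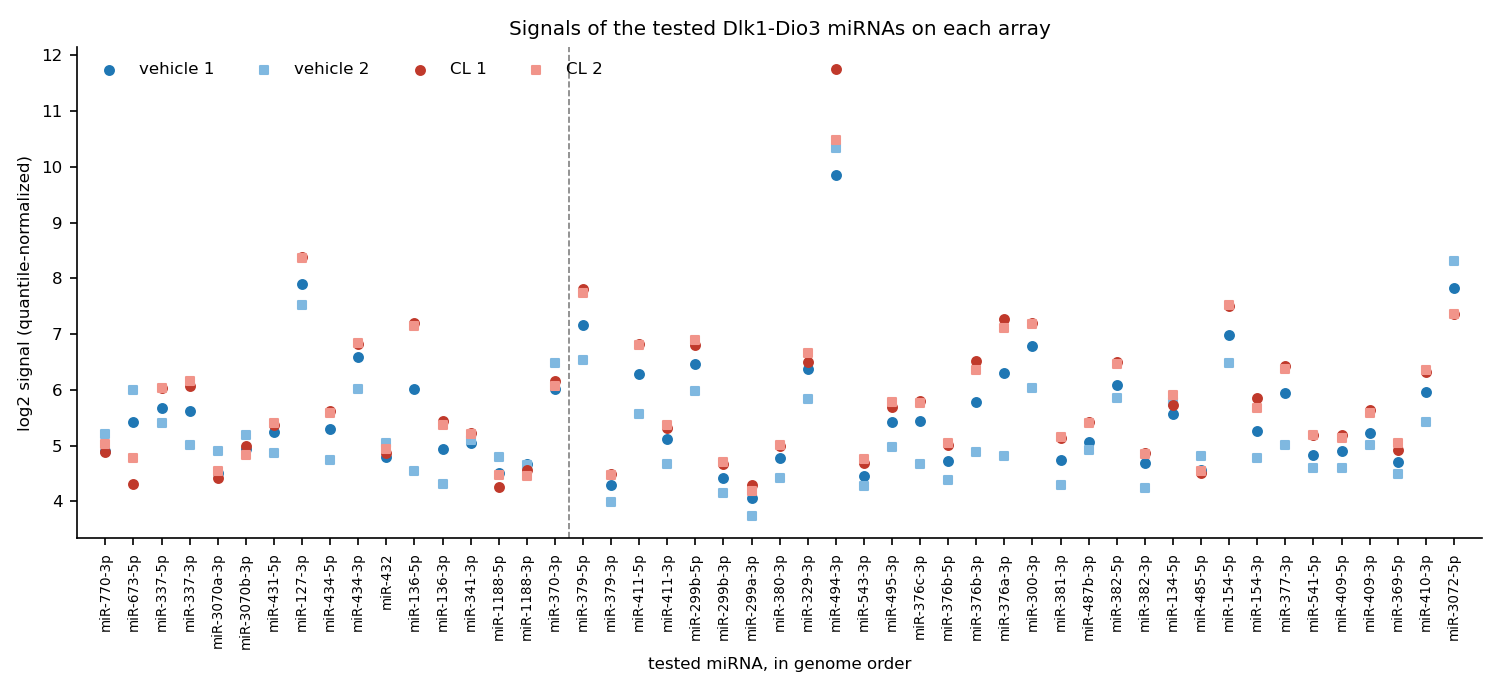
Log2 signal (y axis, quantile-normalized) of the 49 tested members in genome order (x axis) on the 4 arrays, with circles for replicate 1, squares for replicate 2, blue for vehicle and red for CL. In most members both CL points lie close together above both vehicle points, with vehicle 2 lowest. Heights of different miRNAs are not comparable, since each has its own probes.

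Arrays did not overlap for most members. Both CL arrays were above both vehicle arrays in 38 of the 49 (77.6%), compared with 38.1% of all tested miRNAs. Both CL arrays were below both vehicle arrays in 5 members (10.2%), compared with 34.8%. The 49 counted here and below include 8 members detected on only 1 vehicle array, which passed the filter only through the CL group. Another 2 were detected on only 1 CL array and 3 on no CL array, and these passed only through the vehicle group. Among the members counted as below, miR-673-5p and both arms of miR-1188 passed in this way. Among the 36 members detected on all 4 arrays, CL was above in 30 (83.3%) and below in 1 (2.78%). The shares over all miRNAs so detected are not given here.

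Vehicle arrays differed from each other more than CL arrays did. Vehicle 2 was below vehicle 1 in 37 of the 49 members (75.5%), compared with 44.5% of all tested miRNAs, by a median of −0.33 on the log2 scale against 0.07 over all tested miRNAs. CL 2 differed from CL 1 by a median of −0.01. Within the slide column that they shared, CL 1 was above vehicle 1 in 42 members (85.7%, background 53.9%), with a median log2 difference of 0.29. In the other column, CL 2 was above vehicle 2 in 39 members (79.6%, background 48.0%), with a median difference of 0.60. Without vehicle 2, 28 members were called higher (57.1%, background 23.1%) and the median log2 fold change was 0.30. Without vehicle 1, 36 were called higher (73.5%, background 30.1%), with a median of 0.63. Fewer were called without CL 1, 9 members (18.4%, background 8.0%) with a median of 0.47, and without CL 2, 11 members (22.4%, background 9.18%) with a median of 0.46. A group left with 1 array was assumed to vary like the other.

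The slide column was also entered into limma as a block. Then 24 of the 49 members were called higher, against 17.4% of all tested miRNAs, and 2 lower, against 17.9%. After adjustment, 4 members (8.16%) were called, a share close to that of all tested miRNAs (9.41%). These were miR-136-5p, miR-376a-3p and miR-376b-3p, higher in CL, and miR-673-5p, lower in CL. miR-673-5p passed the filter only through the vehicle group, where its signal was higher.

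**Figure D2:**
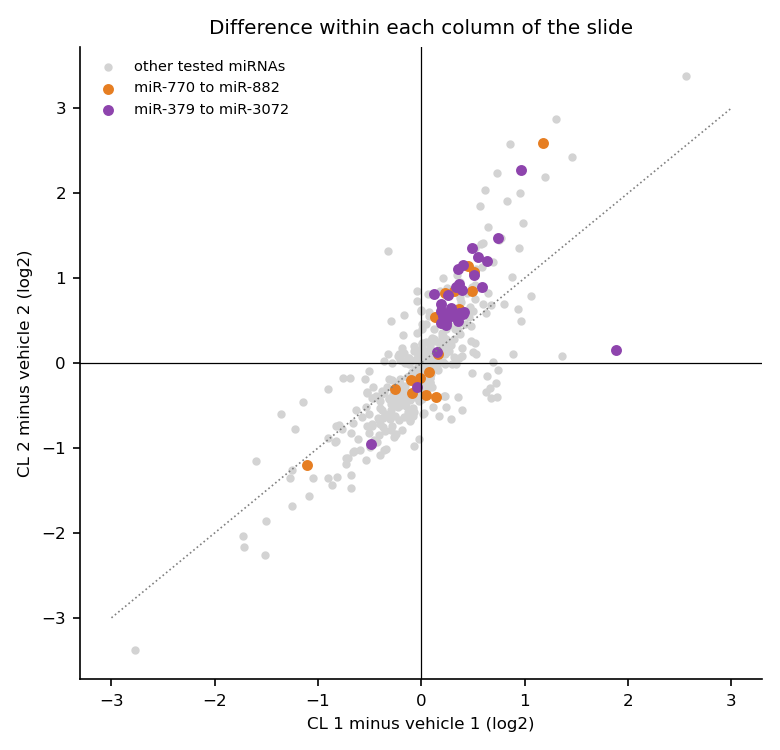
CL 2 minus vehicle 2 (y axis) against CL 1 minus vehicle 1 (x axis) on the log2 scale, the arrays of each pair sharing a slide column. Each point is 1 tested miRNA, with 17 members from miR-770 to miR-882 (orange), 32 from miR-379 to miR-3072 (purple) and the others (grey). Most members lie above 0 in both columns and above the dotted line of equal differences, and miR-494-3p is the purple point far to the right.

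Both groups of members contained calls of higher signal, with a larger share in the miR-379 to miR-3072 group. Of its 76 members, 32 were tested, 21 were called higher (65.6%), 1 was called lower and 10 were not called. Its log2 fold changes were above 0 in 30 and below 0 in 2. In the miR-770 to miR-882 group, 17 of 37 members were tested, 5 were called higher (29.4%), 1 was called lower and 11 were not called, with 9 above and 8 below 0. Over all tested miRNAs, 18.6% were called higher and 16.2% lower. The longest probes also differed, with a median C share of 33.3% in the miR-770 to miR-882 group and 21.6% in the other. The difference in calls between the groups was not tested.

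**Figure D3:**
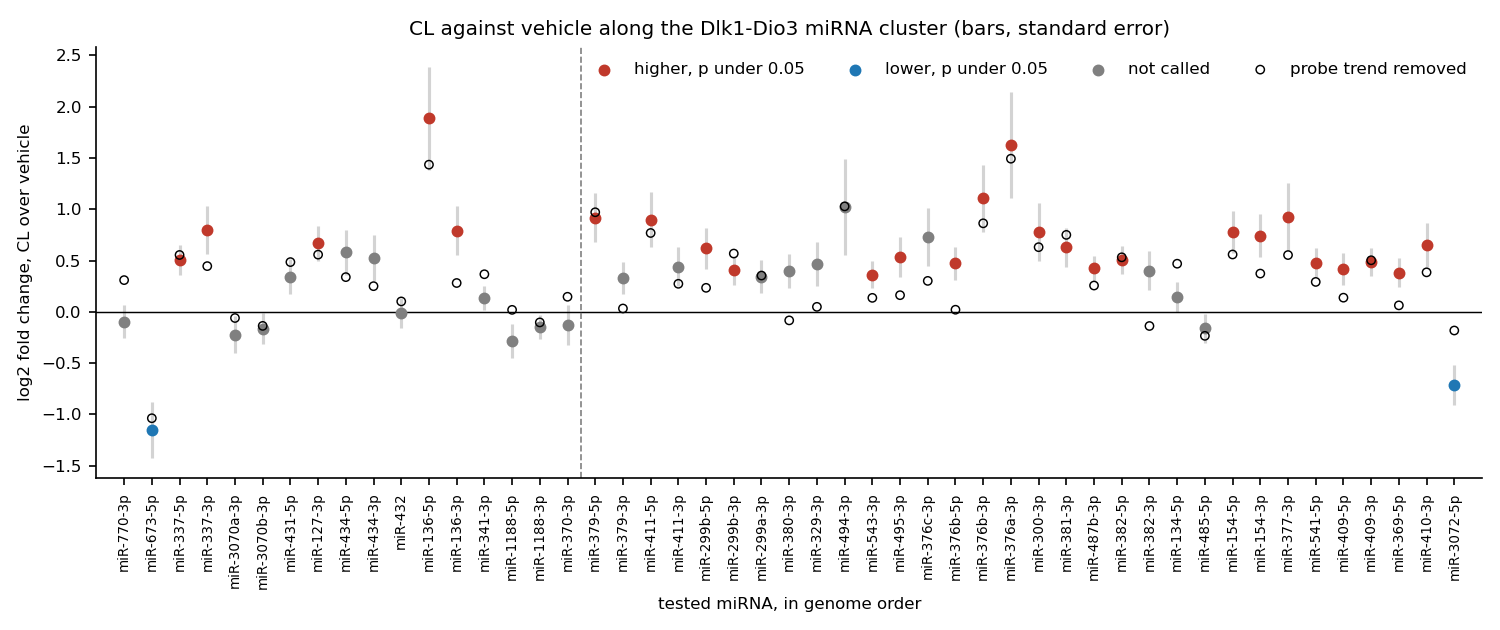
Log2 fold change of CL over vehicle (y axis) for the 49 tested members in genome order (x axis), with the standard error as bars and filled points coloured by the call. Open circles are the fold changes after a trend on probe base composition and length was removed, and the dashed line separates the miR-770 to miR-882 group from the miR-379 to miR-3072 group. Most points right of the line are above 0, and several small rises come close to 0 in the open circles.

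In the miR-770 to miR-882 group, miR-136-5p had the largest rise of all members. Its log2 signals were 6.02 and 4.55 in vehicle 1 and 2, and 7.20 and 7.14 in CL 1 and 2. Both CL arrays were above both vehicle arrays, and vehicle 2 was far below vehicle 1. The log2 fold change was 1.89 ± 0.51 (SE, n = 2 arrays per group, limma adjusted p = 0.103), or 3.70-fold. Without vehicle 2 it was 1.15, and without vehicle 1 it was 2.62. The uncorrected spots of its longest probe, part of the same data, also had both CL arrays above both vehicle arrays. Their median signals were 139 and 45.7 in vehicle and 266 and 276 in CL. On vehicle 2, 10 of these 20 spots were well above background, against all 20 on each other array. With the slide column as a block, the adjusted p was 0.047. The other arm, miR-136-3p, was called higher by 0.79, with signals of 4.93 and 4.30 in vehicle and 5.45 and 5.38 in CL.

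The mature miR-136 and miR-127 are encoded antisense to Rtl1 and pair with its mRNA in full. miR-127-3p gave 7.89 and 7.51 in vehicle and 8.38 and 8.36 in CL. Its arrays did not overlap, and it was called higher by 0.67 ± 0.17 (limma adjusted p = 0.103). miR-127-5p was detected on no array.

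The hairpin of miR-337 gave a rise in both arms. miR-337-5p was at 5.67 and 5.40 in vehicle and at 6.04 on each CL array, a log2 fold change of 0.51 ± 0.15 (limma adjusted p = 0.113). miR-337-3p was at 5.62 and 5.02 in vehicle and at 6.07 and 6.16 in CL, a log2 fold change of 0.80 ± 0.23 (limma adjusted p = 0.113). Neither arm of miR-434 was called, though CL was above vehicle without overlap in each. miR-434-5p was at 5.30 and 4.74 in vehicle and 5.62 and 5.58 in CL (0.58 ± 0.22), and miR-434-3p at 6.59 and 6.01 against 6.82 and 6.84 (0.53 ± 0.23).

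Of the 10 tested members with fold changes below 0, 8 lay in this group, and 1 of the 8 was called. miR-673-5p had signals of 5.42 and 5.99 in vehicle and 4.31 and 4.78 in CL, with no overlap. The log2 fold change was −1.16 ± 0.27 (limma adjusted p = 0.103), or 2.23-fold lower in CL, and with the slide column as a block the adjusted p was 0.028. miR-673-5p was detected on 3 arrays, 2 vehicle and 1 CL, so it was tested only through the vehicle group. miR-673-3p was detected on no array.

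The other members of this group below 0 were miR-770-3p (−0.10), miR-3070a-3p (−0.22), miR-3070b-3p (−0.16), miR-432 (−0.01), miR-1188-5p (−0.28), miR-1188-3p (−0.15) and miR-370-3p (−0.13), none of them called. miR-3070a-3p and both arms of miR-1188 were not detected on any CL array and were tested only through the vehicle group. miR-770-3p, miR-432, miR-1188-5p and miR-370-3p changed sign when the probe trend described below was removed. miR-370-3p, at 6.02 and 6.47 in vehicle and 6.16 and 6.08 in CL, had overlapping arrays.

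In the miR-379 to miR-3072 group, the miR-376 family had the largest rises. The miR-376 hairpins are tandem relatives whose precursors are known to be edited by adenosine deaminases. miR-376a-3p gave 6.30 and 4.82 in vehicle and 7.27 and 7.10 in CL, a log2 fold change of 1.62 ± 0.51 (limma adjusted p = 0.120), or 3.08-fold. miR-376b-3p gave 5.78 and 4.89 in vehicle and 6.52 and 6.36 in CL, a log2 fold change of 1.11 ± 0.33 (limma adjusted p = 0.114). In both, vehicle 2 was the lowest array by a wide gap and the CL arrays lay close together. Without vehicle 2, the log2 fold changes were 0.88 for miR-376a-3p and 0.66 for miR-376b-3p. Without vehicle 1, they were 2.37 and 1.55. On vehicle 2, 12 and 16 of the 20 spots of their longest probes were well above background. With the slide column as a block, the adjusted p was 0.050 for each, just under the threshold.

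The third relative, miR-376c-3p, went from 5.44 and 4.67 to 5.80 and 5.77, with no overlap, but was not called (0.73 ± 0.28, limma adjusted p = 0.151). miR-376b-5p, the other arm of miR-376b, was called higher by 0.47 ± 0.16, from 4.72 and 4.39 to 5.01 and 5.04.

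miR-379 and miR-411, hairpins at the start of this group whose 5p seeds differ at 1 base, had similar fold changes. miR-379-5p was at 7.16 and 6.53 in vehicle and 7.81 and 7.73 in CL, and was called higher by 0.92 ± 0.24 (limma adjusted p = 0.103). miR-411-5p was at 6.28 and 5.56 in vehicle and 6.83 and 6.81 in CL, and was called higher by 0.90 ± 0.27 (limma adjusted p = 0.114). Each array thus stood in the same order in both miRNAs. Their 3p arms share the seed AUGUAAC and were above vehicle on both CL arrays without being called, miR-379-3p by 0.33 ± 0.15 and miR-411-3p by 0.44 ± 0.19 (limma adjusted p = 0.195 and 0.174).

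miR-410-3p, whose seed differs from AUGUAAC at 1 base and which lies near the far end of the group, was called higher. Its signals were 5.96 and 5.42 in vehicle and 6.33 and 6.35 in CL, a log2 fold change of 0.65 ± 0.21 (limma adjusted p = 0.127). miR-410-5p was detected on no array.

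miR-300-3p and miR-381-3p, a further pair with seeds that differ at 1 base, were both called higher. miR-300-3p rose from 6.79 and 6.03 to 7.19 and 7.18, by 0.78 ± 0.28 (limma adjusted p = 0.136). miR-381-3p rose from 4.75 and 4.29 to 5.14 and 5.15, by 0.63 ± 0.19 (limma adjusted p = 0.117). Neither 5p arm was tested.

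miR-299a and miR-299b are read from opposite strands of the same site. miR-299b-5p was called higher by 0.62 ± 0.20, from 6.47 and 5.98 to 6.80 and 6.89, and miR-299b-3p by 0.41 ± 0.14, from 4.41 and 4.16 to 4.67 and 4.71. miR-299a-3p, which shares the 3p seed AUGUGGG, went from 4.05 and 3.74 to 4.29 and 4.19 and was not called (0.34 ± 0.16, limma adjusted p = 0.194). No overlap of arrays was seen in the 3, and the shared pairing of the miR-299b probes means that they do not give separate evidence.

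The members within Mirg rose in several hairpins. miR-154-5p, at 6.99 and 6.47 in vehicle and 7.50 and 7.51 in CL, was called higher by 0.78 ± 0.21 (limma adjusted p = 0.103), and miR-154-3p, at 5.27 and 4.79 against 5.86 and 5.68, by 0.74 ± 0.21 (limma adjusted p = 0.107). miR-377-3p, at 5.94 and 5.01 against 6.44 and 6.37, was called higher by 0.92 ± 0.33 (limma adjusted p = 0.136). The vehicle arrays were apart in all 3 and the CL arrays close together.

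Smaller rises in Mirg were called for miR-541-5p (0.48), miR-409-5p (0.42), miR-409-3p (0.49) and miR-369-5p (0.38). miR-541-5p gave 4.83 and 4.59 in vehicle and 5.19 and 5.19 in CL, with no overlap (SE 0.14, limma adjusted p = 0.113), and miR-541-3p was detected on no array. Between miR-411 and Mirg, miR-543-3p (0.36), miR-495-3p (0.53), miR-487b-3p (0.42) and miR-382-5p (0.50) were also called higher. In each of these 8 members both CL arrays were above both vehicle arrays. However, miR-409-5p, miR-369-5p and miR-543-3p were not detected on vehicle 2 and were tested only through the CL group. miR-382-3p, the other arm of miR-382, was at 4.69 and 4.23 in vehicle and 4.88 and 4.85 in CL and was not called (0.40 ± 0.19).

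miR-3072-5p, at the far end of the group, was the only one of the 32 to be called lower. Its signals were 7.83 and 8.30 in vehicle and 7.35 on each CL array, a log2 fold change of −0.72 ± 0.19 (limma adjusted p = 0.106), or 1.64-fold lower in CL. Of the bases of its longest probe, 69.2% were C, the highest share among the tested members. After the probe trend was removed its fold change was −0.18 and no longer called. miR-485-5p was the other member of the group below 0 (−0.16, not called).

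miR-494-3p had CL arrays that stood far apart. Its log2 signals were 9.86 and 10.33 in vehicle and 11.75 and 10.48 in CL. Both CL arrays were above both vehicle arrays, but CL 1 was 1.26 above CL 2, the widest gap between the CL arrays among all 425 tested miRNAs. CL 1 was above vehicle 1 by 1.89 and CL 2 above vehicle 2 by 0.15, and the log2 fold change of 1.02 ± 0.47 was not called (limma adjusted p = 0.194). Without CL 1 it was 0.39, and without CL 2, which leaves the high array alone, it was 1.65 (limma adjusted p = 0.00084). The spots of its longest probe had median signals of 751 and 879 in vehicle and 2203 and 1033 in CL.

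Further members of the group were not called. miR-329-3p, which has the same seed (ACACACC) as miR-362-3p, a miRNA encoded elsewhere, was at 6.37 and 5.84 in vehicle and 6.49 and 6.66 in CL (0.47 ± 0.22, limma adjusted p = 0.196). miR-134-5p, known in neurons for limiting the size of dendritic spines, had overlapping arrays, at 5.57 and 5.78 in vehicle and 5.73 and 5.91 in CL (0.14 ± 0.15, limma adjusted p = 0.509).

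Both arms were tested for 11 hairpins, and their fold changes had the same sign in each, above 0 in 10 hairpins and below 0 in 1. Both arms were called higher in 6 (miR-136, miR-154, miR-299b, miR-337, miR-376b and miR-409) and 1 arm in 3 (miR-379, miR-382 and miR-411). Neither was called higher for miR-434 or for miR-1188, whose arms were both below 0. Among the called arms, miR-136-3p, miR-299b-3p and miR-409-5p were not detected on vehicle 2 and passed the filter only through the CL group. The log2 fold changes of the arms differed most in miR-136, by 1.09, and least in miR-154, by 0.03.

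Fold changes across all miRNAs of these arrays varied with the composition of the probe, and the members' probes were not typical. C made up a median of 22.7% of the longest probe of the tested members and 31.8% over all tested miRNAs, with median lengths of 18 and 17 bases. After a trend on probe base composition and length was removed, 20 members were called higher (40.8%, against 19.8% of all tested miRNAs) and 1 lower (2.04%, against 18.6%), and 17 of the 26 members called higher before remained so. All 26, picked as higher on these same arrays, stayed above 0. miR-136-5p, miR-376a-3p, miR-376b-3p, miR-379-5p, miR-411-5p and miR-127-3p remained called higher, but miR-136-3p, miR-299b-5p, miR-377-3p, miR-495-3p and miR-376b-5p did not.

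**Figure D4:**
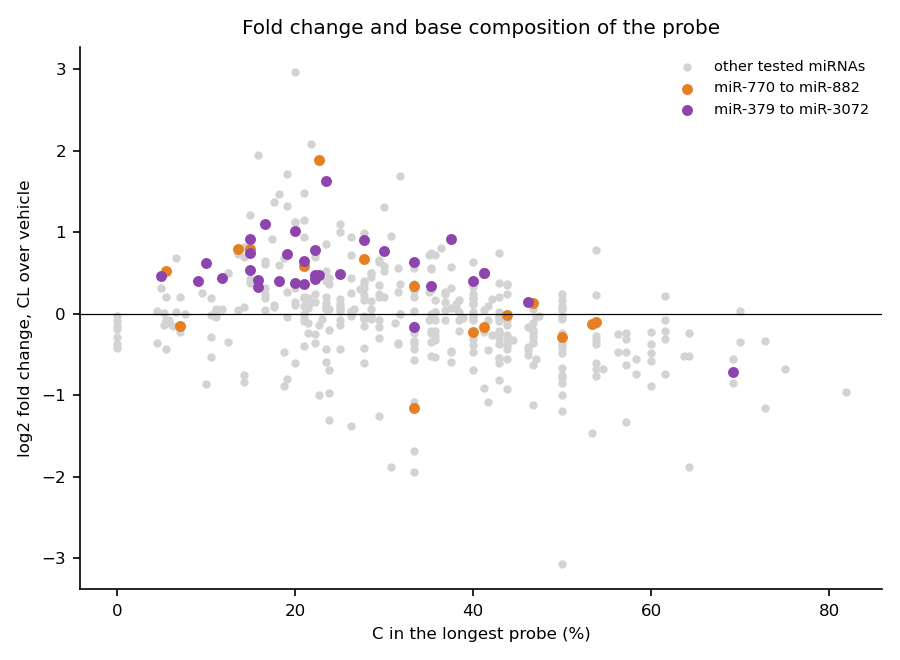
Log2 fold change of CL over vehicle (y axis) against the share of C in the longest probe in percent (x axis), 1 point per tested miRNA, for members from miR-770 to miR-882 (orange), members from miR-379 to miR-3072 (purple) and the other tested miRNAs (grey). Most members have a low share of C, whereas miR-3072-5p, at 69.2% and −0.72, has the highest share among them.

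Markers of the cells that SVF holds moved between the groups as well. Of 7 fibroblast and stromal miRNAs, 5 were called higher in CL and 1 lower, and their summed signals on the log2 scale were 13.07 and 12.48 in vehicle and 13.62 and 13.59 in CL. The members' own sums were 11.81 and 11.77 in vehicle and 12.73 and 12.22 in CL. Without miR-494-3p, which made up a large part of the members' sum, these were 11.38 and 11.10 in vehicle and 11.72 and 11.71 in CL. Of 5 leukocyte miRNAs, 2 were called higher and 1 lower, with sums of 11.19 and 10.79 in vehicle and 11.75 and 11.71 in CL. All 3 red cell miRNAs were called higher, with sums of 13.00 and 13.22 in vehicle and 14.04 and 13.80 in CL. Both endothelial miRNAs were called lower, with sums of 13.92 and 13.79 in vehicle and 12.32 and 12.65 in CL. Of 2 mural miRNAs 1 was called lower, with sums of 9.31 and 9.06 in vehicle and 8.61 and 8.73 in CL. None of 3 skeletal muscle miRNAs was called, with sums of 8.15 and 7.17 in vehicle and 7.92 and 8.10 in CL. Of 4 epithelial miRNAs 3 were detected on no array, with sums of 6.14 and 6.17 in vehicle and 6.43 and 6.44 in CL. Vehicle 2 was the lowest array for the fibroblast and stromal, leukocyte and skeletal muscle sums, as for most Dlk1-Dio3 members. It was not the lowest for the other lists. The part of these cell types in the members' rise was not tested.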

How the data were processed

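miRNAs of visWAT SVF were measured on 4 one-colour Agilent arrays, and the authors deposited Feature Extraction 10.7.1.1 files with linear intensity per spot, detection flags and totals, and a table of log2 values. Its column medians were −3.31 and −3.30 for vehicle 1 and 2, and −3.20 and −3.26 for CL 1 and 2. Across detected miRNAs its values followed the summed probe totals of the same array with a Spearman's rho of 0.998 to 0.999, so direction is that of the signal, while how it was scaled between arrays stays unknown. It served as an alternative only. The deposited intensity (mean spot signal) was background-corrected in R 4.3.3 by the normexp model of limma 3.58.1, with neither local background nor offset. After control and outlier spots were dropped, arrays were brought to common quantiles and the spots of each miRNA were combined on the log2 scale by median polish. Testing required scanner detection on both vehicle arrays or on both CL arrays. CL was compared with vehicle by limma's moderated linear model, two-sided, and p-values were adjusted by the Benjamini-Hochberg method. An exact permutation test of 2 against 2 arrays cannot go below 0.333. The SAM test that the methods name was not run. limma was also run on simulated arrays drawn around the mean signals of these data, whose outcome is not given here.

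The files' header names mm9, but the positions fit GRCm38: 103 of 113 probes lie within the RefSeq mature miRNA. The members were meant to list only positions in the window. As 79 of them also listed the same site 1238210 bases away, as in the older build, these were kept. Members and lists were chosen with earlier results of these data known. Named with values were the called members, miR-136, miR-127, miR-299a, miR-541, miR-379, miR-410 and miR-411, the 5 brightest of each group, members below 0 and partner arms. No fold bound is printed for members undetected in CL, since their own signals there were above the dimmest detected miRNA. The number of arrays limits the precision. Arrays detected 386 to 431 miRNAs, and negative control spots averaged 31.7 to 38.6.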

Additional observations from a re-analysis of the deposited data

How the results depend on the processing

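The 26 members called higher were above 0 in every alternative that tested them (21 of the 26 where detection on all 4 arrays was required), except the scanner software's total per miRNA, where 22 were. The 26 were picked as higher on these same arrays, and several alternatives reused their fold changes, so this is no separate evidence. The counts of calls moved more. Members called higher numbered 7 with scaling to the 75th percentile (14.3%, against 9.88% of all tested miRNAs), 13 with median centring (26.5%, against 9.41%), 12 without normalization between arrays (24.5%, against 10.8%), 13 with the scanner totals (26.5%, against 16.2%), 7 in the deposited log2 table (14.3%, against 10.8%), 3 by the methods' t-test (6.12%, against 7.53%), and 9 to 36 with 1 array left out. Without normalization the median of all tested miRNAs was −0.12. The share of members called lower was 6.12% with the 75th percentile, against 21.4% of all tested miRNAs. It was 2.04% with the probe trend removed (against 18.6%) and 2.78% with detection on all 4 arrays required (against 15.7%). By the methods' t-test it was 0.0%, against 4.71%. Members called lower numbered 5 with the scanner totals (10.2%, against 11.5%), 3 with the 75th percentile, 1 with the probe trend removed, 1 with detection on all 4 arrays required, 0 by the methods' t-test, and 1 to 6 with 1 array left out. After adjustment, 4 members were called with median centring and 4 without normalization, against 44 and 64 of all 425 tested miRNAs. With the scanner totals 3 were called, against 27 of the 425, and with the replicate block 4, against 40.

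Over all 425 miRNAs, adjusted calls numbered 44 with median centring, 64 without normalization, 27 with the scanner totals, 7 in the deposited table, 31 with the probe trend removed, 2 with an intensity trend in limma, 40 with the replicate block, and 1 (without vehicle 2) to 230 (without vehicle 1) with 1 array left out. With median centring, no normalization, scanner totals or the replicate block, adjusted calls were no more frequent among the 49 members than among the 425. With the block the shares were 8.16% of members and 9.41% of all tested miRNAs. Replicate numbers coincide with slide columns, and same-numbered arrays deviated together with a correlation of 0.121, from 2 pairs. With the block, 24 members were called higher.

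The members' median of 0.47 was 0.76 with the 75th percentile, 0.19 with an offset of 50, 0.29 without background correction, 0.75 with the scanner totals, 0.89 with sums of the probe totals (added after seeing the data), 1.02 in the deposited table, 0.0745 without the detection filter, and 0.30 to 0.63 with 1 array left out. Sign changes with the scanner totals were miR-770-3p (0.12), miR-3070b-3p (0.47), miR-434-5p (−0.020), miR-432 (0.93), miR-379-3p (−0.15), miR-495-3p (−2.34), miR-381-3p (−0.28), miR-487b-3p (−1.44) and miR-541-5p (−2.08). With the trend removed they were miR-770-3p (0.31), miR-432 (0.10), miR-1188-5p (0.020), miR-370-3p (0.15), miR-380-3p (−0.083) and miR-382-3p (−0.14). miR-432 was at 0.029 with the longest probe only. With 1 array left out, miR-770-3p ranged from −0.25 to 0.060, miR-432 from −0.14 to 0.12 and miR-370-3p from −0.36 to 0.10. The causes were not tested.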

Other observations

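For many members the total per miRNA in the scanner files differed from the sum of the totals of its probes in the same files. Among tested members detected on an array, the total was within 10% of that sum for 33 of 49 in vehicle 1, 24 of 41 in vehicle 2, 32 of 44 in CL 1 and 34 of 46 in CL 2, and more than 1.5-fold away for 14, 16, 9 and 11. For miR-541-5p, the totals were 93.1 and 62.5 in vehicle and 14.2 and 15.2 in CL, whereas the sums were 11.1 and 7.01 in vehicle and 14.2 and 15.2 in CL. CL was thus below vehicle in the totals and above it in the sums. For miR-136-5p in vehicle 2 the total was 49.7 and the sum 8.45, and for miR-495-3p in vehicle 2 they were 1044 and 12.5. The spot signals used for the comparisons do not depend on either column.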
